A study of Mus musculus with 57 samples.

Results

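The potassium channel genes of the mouse were examined as 83 of the 21118 genes in the count table: every symbol that begins with Kcn and a further letter, without the glial inward rectifiers Kcnj10 and Kcnj16 and without antisense transcripts whose symbol contains os, which together left out 4 genes. The 83 fell into 37 voltage-gated pore or modifier subunits (Kcna, Kcnb, Kcnc, Kcnd, Kcnf, Kcng, Kcnh, Kcnq, Kcns and Kcnv), 14 accessory subunits (Kcnab, Kcne, Kcnip and Kcnmb), 11 inward rectifiers (Kcnj), 11 2-pore channels (Kcnk) and 8 calcium- or sodium-activated channels (Kcnma, Kcnn, Kcnt and Kcnu). The last 2 are no channel subunits: Kcnq1ot1, a long noncoding RNA read antisense to Kcnq1, and Kcnrg, a regulator of channel assembly. All 83 gene IDs were found in the GRCm38 annotation. Of the 83, 70 had a mean of at least 1 CPM (counts scaled to the library's size), 38 a mean of at least 10 CPM, and 30 had a count in every library.

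The study measured ribosome-bound RNA of the cerebral cortex in Aldh1l1-L10-GFP mice on a C57BL/6 background, in which a GFP-tagged ribosomal protein driven by Aldh1l1 regulatory sequence marks ribosomes of astroglial cells, so that they can be pulled down from whole cortex with an antibody to GFP (translating ribosome affinity purification). All animals carried this transgene, and no input or untagged sample was analysed here. Its title asks about sex differences in the development of the astroglial translatome. The 53 libraries came from 53 animals in 12 groups: females at postnatal day (P) 1 (n = 4), P4 (4), P7 (8), P14 (5), P35 (3) and adult (4), and males at the same ages (4, 4, 4, 5, 3 and 5), none of them treated. The labels do not give the age of the adults in days.

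The labels also give each library a replicate number whose first digit puts it in set 1 (10 libraries), set 2 (8), set 3 (12), set 4 (11) or set 6 (8), or an S for the 4 P7 libraries of a second sequencing run alone. What the digit marks is not stated. Each numbered set held every age, apart from set 2, which had no P35 library. Library totals ran from 14768178 to 48541139 counts with a median of 24033399. The number of genes with at least 10 counts was 10085 in P1 female 4, 13834 in P7 female 40 and 14530 in P14 male 4, and at least 15531 in the others. Aldh1l1 itself, the gene that marks the tagged cells, ran from 32.8 to 422 CPM in all libraries but P1 female 4, where it was 10.1 CPM. Judged by Y-linked genes, 6 libraries did not match their sex label, and 5 carried a letter of the other sex in their description.

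Markers of other cell types were present in every set. The summed level of 30 neuronal markers ran from 2946 to 7512 CPM in set 1 (median 3894) and from 3510 to 7277 CPM in set 2 (median 4876), but from 9116 to 17129 CPM in set 3 (median 13171) and from 12136 to 35455 CPM in set 6 (median 22891). The summed level of 28 mature astrocyte markers had medians of 20401 CPM in set 1 (7093 to 34836), 11653 CPM in set 2 (3124 to 25197), 4934 CPM in set 3 (1383 to 19458) and 3225 CPM in set 6 (1260 to 5888). Sets 3 and 6 thus held more neuronal and less astrocyte marker RNA than sets 1 and 2, and for the neuronal sum the libraries did not overlap. In such bulk samples, fewer cells of a type and less RNA per cell cannot be told apart.

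Potassium channels let potassium ions leave or enter a cell and so set its resting voltage and shape its electrical signals. Voltage-gated channels are known mostly from neurons, where Kcna, Kcnb, Kcnc, Kcnd and Kcnq pores repolarise the membrane and accessory subunits tune them. Astrocytes are known for a large potassium conductance at rest, carried by inward rectifiers and 2-pore leak channels, which grows as the cells mature and takes up potassium that neurons release.

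In 2 comparisons from the same fit, whose sets share no library, 7 members were lower in the sets rich in neuronal markers. The promoter windows of 4 of these are printed here as examples. The 4 differed in their change with age: from P1 to adult Kcnk1 and Kcng4 rose, Kcne1l fell and Kcnip3 did not pass. Each window runs from 250 bases before to 50 bases after an annotated transcription start (RefSeq, GRCm38.p6), 5′ to 3′ on the gene's strand. Capitals mark TTGGC or its reverse complement GCCAA, the half-site letters of nuclear factor I proteins, factors known from astrocyte development.
Kcnk1, chr8:125994852-125995151, plus strand: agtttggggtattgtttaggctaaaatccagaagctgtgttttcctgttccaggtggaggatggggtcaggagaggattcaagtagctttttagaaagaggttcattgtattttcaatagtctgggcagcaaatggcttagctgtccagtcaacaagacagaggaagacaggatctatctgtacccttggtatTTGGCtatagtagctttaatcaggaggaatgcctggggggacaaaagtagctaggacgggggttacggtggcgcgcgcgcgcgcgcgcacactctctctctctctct
Kcng4, chr8:119635631-119635930, minus strand: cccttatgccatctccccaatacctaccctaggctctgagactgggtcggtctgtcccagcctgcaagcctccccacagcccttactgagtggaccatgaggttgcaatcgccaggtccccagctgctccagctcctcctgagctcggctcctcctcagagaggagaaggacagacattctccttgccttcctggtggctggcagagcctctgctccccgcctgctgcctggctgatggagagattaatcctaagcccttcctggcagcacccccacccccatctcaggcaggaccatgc
Kcnip3, chr2:127522045-127522344, minus strand, 1 of 3 windows of this gene: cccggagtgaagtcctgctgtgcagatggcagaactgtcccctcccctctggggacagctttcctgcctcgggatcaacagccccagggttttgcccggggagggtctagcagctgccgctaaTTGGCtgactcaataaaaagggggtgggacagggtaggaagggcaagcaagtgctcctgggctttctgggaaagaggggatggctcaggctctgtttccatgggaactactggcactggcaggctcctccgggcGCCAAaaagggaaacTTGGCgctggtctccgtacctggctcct
Kcne1l, chrX:142306149-142306448, minus strand: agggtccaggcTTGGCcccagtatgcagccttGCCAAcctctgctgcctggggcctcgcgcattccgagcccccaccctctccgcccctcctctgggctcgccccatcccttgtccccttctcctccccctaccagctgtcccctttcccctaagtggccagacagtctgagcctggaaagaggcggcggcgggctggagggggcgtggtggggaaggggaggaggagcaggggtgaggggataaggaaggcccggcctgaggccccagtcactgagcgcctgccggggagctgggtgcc
The letters occurred 1 time in the Kcnk1 window, 2 times in that of Kcne1l, 3 times in the printed window of Kcnip3 and not at all in that of Kcng4. Windows 2 and 3 of Kcnip3, not printed, held them 0 and 1 times, and window 2 held ACAAT 1 time. Among all 32851 promoter windows, 46.7% held TTGGC on either strand, and 42.7% of the 82 windows of 60 matched members did. ACAAT on either strand, the core letters that SOX proteins bind, occurred 2 times in the Kcnk1 window and in none of the other printed windows, against 31.0% of all windows and 23.2% of the members' windows. The Kcnk1 window had a GC content of 49.0% and the other printed windows between 60.3% and 69.7%. In the GENCODE annotation of GRCm38 the genes themselves lie at chr8:125995170-126030685 (Kcnk1), chr8:119623854-119635680 (Kcng4), chr2:127456498-127522094 (Kcnip3), chrX:142304752-142306294 (Kcne1l) and chr1:189207930-189402273 (Kcnk2).

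Per kilobase of exon and averaged over the 53 libraries, the member with the highest mean was Kcne1l at 64.2 ± 53.8 CPM per kb (SD), a single-span accessory subunit known to damp Kcnq currents. Kcnip3 (55.5 ± 25.9 CPM per kb), a calcium-binding partner of Kcnd channels that is also known as the transcriptional repressor DREAM, was among the top 3 members in 50 libraries. Kcnk1, a weakly rectifying 2-pore leak channel described in astrocytes, followed at 41.0 ± 42.5 CPM per kb, and Kcnip2, another Kcnd partner, at 34.7 ± 15.2 CPM per kb. The next members stood lower: Kcnab2, a beta subunit of Kcna channels, at 15.3 ± 16.2 CPM per kb, Kcnip4 at 10.8, and Kcnk2, a leak channel gated by stretch and lipids, at 10.3 ± 3.42 CPM per kb. Kcnh3, Kcnc4, Kcnab3, Kcnd2, Kcnj4, Kcnip1, Kcna2 and Kcnab1 lay between 9.14 and 5.58 CPM per kb. The SDs of the first 4 members, taken over all ages and sets, were larger than the gaps between them. Whether these members differ within the same libraries was not tested. The order of the means also moved with the set and with age, which was not tested either. In set 1 Kcne1l stood at 98.6 ± 58.3 CPM per kb (n = 10), above Kcnip3 (86.5 ± 17.0), Kcnk1 (82.7 ± 55.1) and Kcnip2 (30.8 ± 13.6). In set 3 it stood at 24.1 ± 15.0 (n = 12), below Kcnip2 (33.5 ± 16.7), Kcnip3 (33.4 ± 13.8) and Kcnk1 (30.5 ± 27.1), and in set 6 at 27.2 ± 16.0 (n = 8), below Kcnip2 (39.6 ± 13.7) and Kcnip3 (38.6 ± 9.57). Kcnk1 had a mean of 8.11 CPM per kb at P1 and 79.0 in adults, whereas Kcne1l had 89.9 at P1 and 27.5 in adults.

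The replicate sets were compared with age and sex held in the fit, to see which members moved with which marker group. Set 3 minus set 1 placed 44 of 83 members higher and 7 lower (61.4% of members, against 53.0% of all genes called, 28.2% higher and 24.8% lower, by edgeR's quasi-likelihood test with Benjamini-Hochberg adjusted p under 0.05). Set 6 minus set 2 placed 16 higher and 7 lower (27.7% of members, against 30.7% of all genes, 15.9% higher and 14.9% lower). The sets in these comparisons share no library. Both comparisons come from the same fit of all libraries, with shared group means and spread, so they are not independent. Set 6 minus set 1, which shares set 1 with the first, placed 27 higher and 8 lower (42.2%, against 34.3% of all genes, 17.2% higher and 17.1% lower). The median log2 difference of the members was 1.25 for set 3 minus set 1 (0.11 over all genes) and 0.62 for set 6 minus set 2 (0.01 over all genes). In the same comparisons 29 and 27 of the 30 neuronal markers were higher and 28 and 27 of the 28 astrocyte markers lower. Of the other marker lists, 10 of 12 endothelial and 7 of 14 myelin markers were higher in set 3 minus set 1, and 0 endothelial and 1 myelin marker in set 6 minus set 2. Their part in the channel differences was not tested.

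Lower in both set 3 minus set 1 and set 6 minus set 2 were 7 of the 83 members. This share was below the 11.6% of all genes that did so. The 7 were the leak channels Kcnk1, Kcnk2 and Kcnk7, the silent voltage-gated subunit Kcng4, the calcium-activated Kcnn2, and the accessory subunits Kcnip3 and Kcne1l. Kcnk1 had a lowest, median and highest level of 28.5, 242 and 360 CPM in set 1, 17.4, 125 and 238 CPM in set 2, 9.64, 56.3 and 190 CPM in set 3, and 13.8, 25.1 and 56.7 CPM in set 6. The ranges of the sets overlapped, but at P14, P35 and adult the set 6 libraries were the lowest of their age. The log2 difference was -1.34 ± 0.33 (SE) for set 3 minus set 1 and -1.54 ± 0.42 for set 6 minus set 2 (edgeR, Benjamini-Hochberg adjusted p = 0.000849 and 0.00366).

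Kcnn2, the pore of a small-conductance channel opened by calcium, ran from 15.8 to 142 CPM in set 1 (median 76.0) and from 12.1 to 99.4 CPM in set 2 (median 49.9). It ran from 10.3 to 67.9 CPM in set 3 (median 23.4) and from 10.5 to 28.3 CPM in set 6 (median 17.9). As with Kcnk1, the set 6 libraries were the lowest at P14, P35 and adult, and its log2 differences were -1.14 ± 0.21 and -1.22 ± 0.25. Kcng4, which gives no current of its own and modifies other voltage-gated channels, had medians of 27.8, 10.4, 2.05 and 2.71 CPM in sets 1, 2, 3 and 6, with log2 differences of -2.49 ± 0.54 and -2.27 ± 0.66. In set 6 its mean was below that of set 1 at 5 of 6 ages, and in set 3 at 6 of 6.

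Kcnip3, whose means over the ages ran from 132 to 235 CPM, ran from 196 to 398 CPM in set 1 (median 311), from 167 to 351 CPM in set 2 (median 264), from 56.8 to 224 CPM in set 3 (median 118) and from 75.8 to 178 CPM in set 6 (median 146). All set 6 libraries were below all set 1 libraries, and the log2 differences were -1.47 ± 0.17 for set 3 minus set 1 and -0.99 ± 0.21 for set 6 minus set 2. Kcnk2 ran from 57.2 to 90.7 CPM in set 1 (median 74.6), from 44.2 to 62.2 CPM in set 2 (median 57.5), from 20.9 to 48.8 CPM in set 3 (median 34.4) and from 29.2 to 64.2 CPM in set 6 (median 38.9). Every set 3 library was below every set 1 library for Kcnk2, with a log2 difference of -1.07 ± 0.13, and set 6 minus set 2 gave -0.58 ± 0.16. Kcne1l had medians of 133, 131, 31.3 and 40.1 CPM in sets 1, 2, 3 and 6, and log2 differences of -2.09 ± 0.25 and -1.60 ± 0.31. Kcnk7, a family member not known to give current alone, was named only because it was the seventh of this group, and its level was near the limit of detection, with a mean of 0.830 CPM in adults. Kcnj10 and Kcnj16, the inward rectifiers by which astrocytes are usually recognised and which the rule left out, had log2 differences of -1.89 and -2.08 for set 3 minus set 1.

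**Figure D1:**
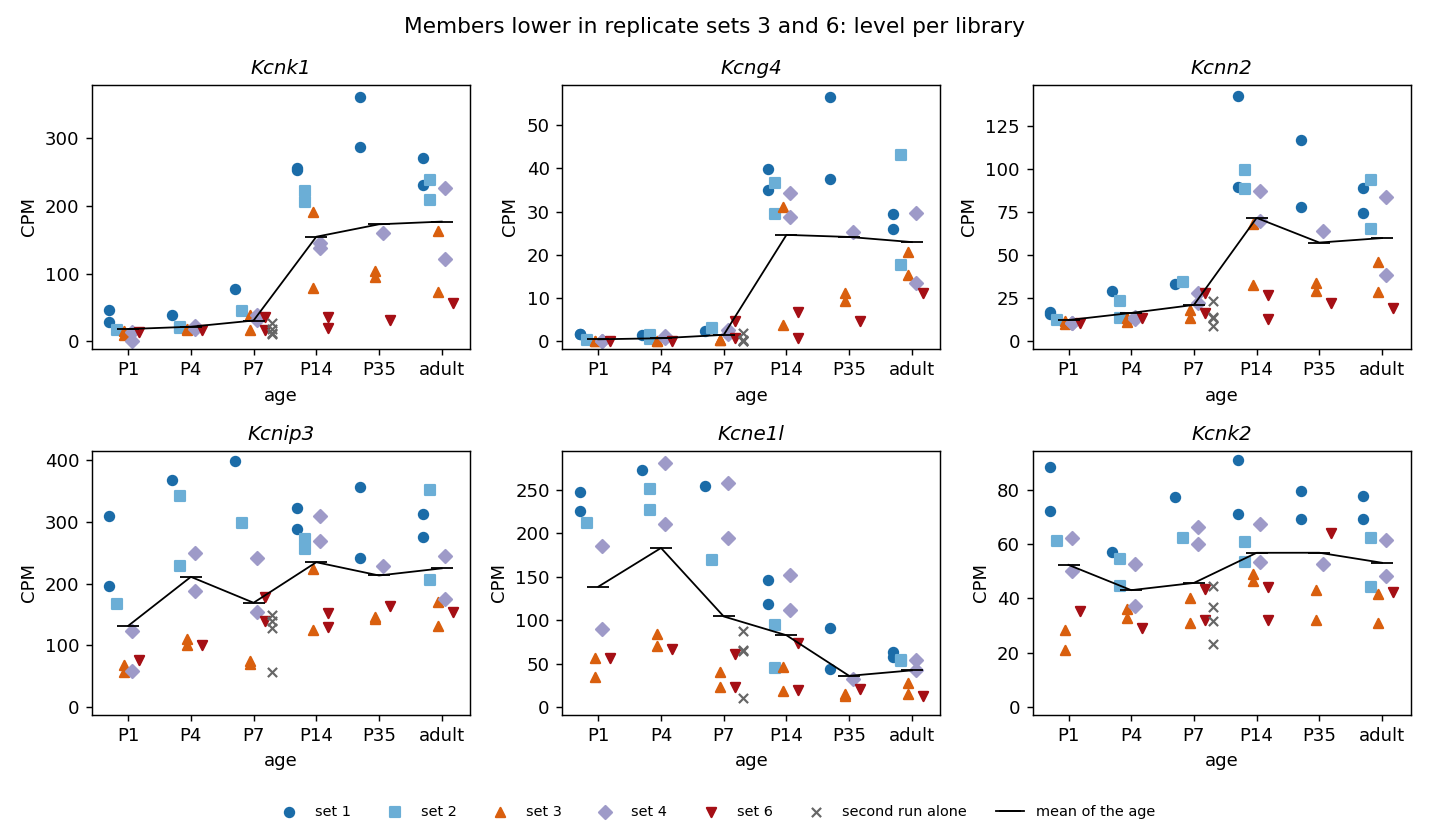
Level in CPM (y axis) of Kcnk1, Kcng4, Kcnn2, Kcnip3, Kcne1l and Kcnk2 in each of the 53 libraries by age (x axis), with the marker showing the replicate set and the black line the mean of the age. The means of sets 3 and 6 (orange and red triangles) lie below that of set 1 (blue circles) at 6 of 6 ages for each gene, except Kcng4 in set 6 (5 of 6). Kcnk1, Kcng4 and Kcnn2 also step up after P7, and the mean of Kcne1l falls from P4 to P35.

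The members higher in both comparisons numbered 14 of 83, beside 10.9% of all genes. They were 6 voltage-gated or modifier subunits (among them Kcnf1, Kcng1, Kcnh3, Kcnq3 and Kcns1), 4 accessory subunits (Kcnab1, Kcnab2, Kcnab3 and Kcnip4), 2 inward rectifiers (Kcnj4 and Kcnj9) and 2 leak channels (Kcnk3 and Kcnk4). Kcnip4 ran from 10.6 to 30.1 CPM in set 1 (median 19.7), from 8.55 to 31.3 CPM in set 2 (median 21.9), from 17.0 to 83.8 CPM in set 3 (median 46.6) and from 40.3 to 188 CPM in set 6 (median 79.7). Every set 6 library was above every library of sets 1 and 2, with log2 differences of 1.33 ± 0.20 for set 3 minus set 1 and 2.04 ± 0.25 for set 6 minus set 2. Kcnab2 had medians of 26.5, 28.5, 93.9 and 101 CPM in sets 1, 2, 3 and 6, and log2 differences of 1.70 ± 0.22 and 1.75 ± 0.26. All 3 Kcnab beta subunits behaved so, with log2 differences between 1.21 and 2.11 for set 3 minus set 1 and between 1.28 and 1.75 for set 6 minus set 2.

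Kcnq3 is a pore subunit of the M current, a slow current that restrains repeated firing. It had medians of 21.8 CPM in set 1 and 61.8 CPM in set 3 (log2 difference 1.34 ± 0.28), and 26.1 CPM in set 2 and 46.6 CPM in set 6 (1.05 ± 0.32). Kcnk4, a stretch- and lipid-gated leak channel known from axons, was at 2.53 CPM in set 1, 3.99 in set 2, 5.35 in set 3 and 13.2 in set 6 by median, with all set 6 libraries above all set 1 libraries. Its log2 difference was 1.06 ± 0.28 for set 3 minus set 1 and 1.60 ± 0.33 for set 6 minus set 2. Kcnk4 and Kcnk2 are close relatives, both opened by stretch and lipids, and they differed in sign in both comparisons. Kcnk4 shares exon sequence with Catsperz on the same strand, so its counts are less certain.

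A further 32 members passed in 1 of the 2 comparisons, all of them higher in set 3 minus set 1 apart from Kcnip1 and Kcnmb4, which were higher in set 6 minus set 2. With a mean of at least 5 CPM in set 3, the largest of these in set 3 minus set 1 were Kcnq1ot1 (log2 3.18 ± 0.63), the sodium-activated pores Kcnt1 (2.69 ± 0.35) and Kcnt2 (2.48 ± 0.59), the A-type pore Kcna4 (2.50 ± 0.44), the ether-a-go-go pores Kcnh1 (2.39 ± 0.48) and Kcnh4 (2.36 ± 0.50) and the silent subunit Kcnv1 (2.07 ± 0.35). In set 6 minus set 2 none of these passed, with log2 differences of -0.54 for Kcnq1ot1 and 0.77 for Kcnt1. Kcnma1, the large-conductance calcium-activated pore, described in neurons and in astrocyte endfeet, was likewise higher in set 3 (2.02 ± 0.33) and did not pass in set 6 minus set 2 (0.52 ± 0.37, adjusted p = 0.306). Whether set 3 and set 6 differ for these genes was not tested.

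The remaining 30 members passed in neither comparison, among them Kcnip2 (log2 0.11 ± 0.14 and 0.43 ± 0.17), Kcna2 (0.12 ± 0.24 and -0.41 ± 0.28), Kcnc4 (0.20 ± 0.27 and 0.51 ± 0.33) and Kcnn3 (-0.33 ± 0.40 and -0.64 ± 0.48). Kcnip1, a Kcnd partner, did not pass in set 3 minus set 1 (0.37 ± 0.18) but was higher in set 6 minus set 2 (0.82 ± 0.22). Set 2 minus set 1 gave 0 called members, with 5 at an unadjusted p under 0.05, and DESeq2 also called 0, beside 0% of all genes called. In set 4 minus set 1, 5 were higher and 5 lower (12.0%, against 17.9% of all genes, 9.56% higher and 8.30% lower). Kcnk1 (log2 -1.09), Kcnn2 (-0.61), Kcnip3 (-0.69) and Kcnk2 (-0.43) were among those lower, and 17 of the 30 neuronal markers were higher and 16 of the 28 astrocyte markers lower in that comparison. The lower count was 2 or 3 in place of 5 without any 1 of 9 libraries: P1 female 1, P1 male 1, P1 male 4, P7 female 10, P14 female 4, P14 male 1, adult female 1, adult female 4 and adult male 1.

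**Figure D2:**
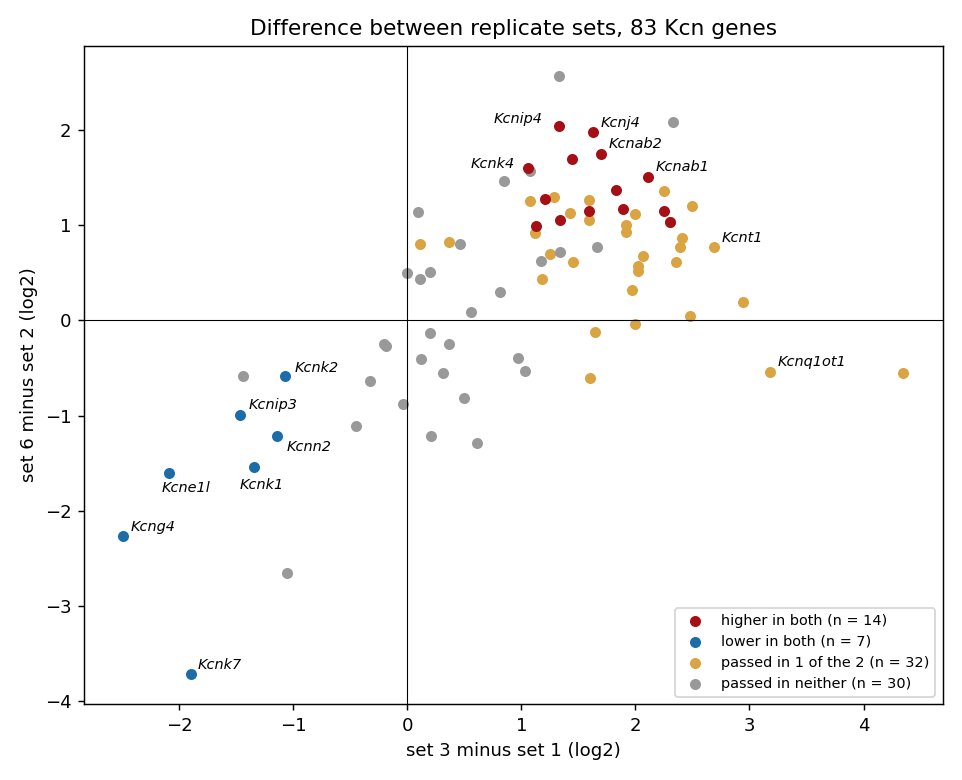
Difference between replicate sets on the log2 scale for the 83 genes, set 3 minus set 1 on the x axis and set 6 minus set 2 on the y axis, coloured by whether each passed the adjusted p of 0.05. The 7 genes lower in both lie at the lower left and the 14 higher in both at the upper right; 32 passed in 1 comparison and 30 in neither.

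From P1 to adult, averaged over the sexes, 29 members rose and 8 fell (44.6% of the 83, against 28.1% of all genes called, 14.6% higher and 13.4% lower, by edgeR with Benjamini-Hochberg adjustment). The members' median log2 change was 1.11, against 0.06 over all genes. By class, 4 of 11 leak channels, 14 of 37 voltage-gated subunits, 4 of 14 accessory subunits, 5 of 11 inward rectifiers and 2 of 8 calcium- or sodium-activated channels rose, and 1, 3, 3, 0 and 1 fell. Over the same interval 22 of 28 astrocyte, 15 of 30 neuronal and 14 of 14 myelin markers were higher, and 5 neuronal markers lower. The astrocyte sum ran from 1260 to 8972 CPM at P1 and from 5888 to 34120 CPM in adults. The neuronal sum ran from 2946 to 14612 and from 5422 to 33405 CPM, and the myelin sum from 129 to 310 and from 845 to 2612 CPM. The part of these markers in the channel changes was not tested.

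Among the leak channels Kcnk1 rose most in level. At P1 its lowest, median and highest level was 0, 14.9 and 46.7 CPM, and in adults 56.7, 209 and 271 CPM, so that every adult library was above every P1 library, and the value of 0 was that of P1 female 4, the library with the fewest genes. The log2 change was 3.28 ± 0.55 (adjusted p = 1.18e-05). The means at the 6 ages were 18.1, 21.6, 30.7, 154, 172 and 177 CPM, a step between P7 and P14 followed by little further change. Within each of the 5 numbered sets the adult mean exceeded the P1 mean, from 37.6 to 251 CPM in set 1, from 12.8 to 118 CPM in set 3 and from 13.8 to 56.7 CPM in set 6. Exons of Kcnk1 overlap a transcript on the other strand, Gm45875, and no source used here says whether the counting used strand. Exons of Kcnk2, Kcnn2, Kcnab1, Kcnab3, Kcnh3, Kcnip4, Kcnj9, Kcnk3, Kcnma1, Kcnmb4, Kcnq1, Kcnq1ot1 and Kcnt2 also overlap transcripts on the other strand, and those of Kcnab2 and Kcnk4 a transcript on the same strand, so their counts carry the same uncertainty.

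The same step marked Kcng4 and Kcnn2. Kcng4 ran from 0 to 1.70 CPM at P1 (median 0.0408) and from 11.2 to 43.2 CPM in adults (median 20.6), with no overlap and a log2 change of 5.53 ± 0.92 (adjusted p = 1.10e-05), the largest of the 83. Its means were 0.473, 0.725, 1.51, 24.6, 24.2 and 23.0 CPM over the 6 ages. Kcnn2 ran from 10.3 to 16.9 CPM at P1 (median 11.2) and from 19.4 to 93.8 CPM in adults (median 65.3), again with no overlap, and rose by a log2 of 2.28 ± 0.35 (adjusted p = 3.05e-06), with means of 12.3, 16.5, 21.1, 71.5, 57.3 and 59.9 CPM. For each of Kcnk1, Kcng4 and Kcnn2, 4 of 5 sets had every library from P14 to adult above every library from P1 to P7. The 12 P7 libraries include 2 of set 3, 2 of set 6 and the 4 of the second run alone. Those 4 had means of 16.8, 0.562 and 15.0 CPM for Kcnk1, Kcng4 and Kcnn2. The P14 libraries were 2 of each numbered set. The part of this make-up in the step of the age means was not tested. Kcnk2 by contrast had means between 43.0 and 56.8 CPM at all ages and a P1 to adult log2 change of 0.01 ± 0.25 (adjusted p = 0.980).

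The Kcna pores, low-threshold channels known from axons, rose for 3 of 6 members. Kcna1 ran from 0.0703 to 6.26 CPM at P1 (median 3.27) and from 23.6 to 77.1 CPM in adults (median 32.5), with no overlap and a log2 change of 3.70 ± 0.68 (adjusted p = 4.74e-05). Kcna2 ran from 2.74 to 34.7 CPM at P1 (median 17.6) and from 90.8 to 180 CPM in adults (median 118), with no overlap and a log2 change of 2.78 ± 0.32 (adjusted p = 8.17e-09). Their beta subunits rose with them: Kcnab2 from 9.35 to 38.4 CPM at P1 (median 17.6) to between 61.2 and 364 CPM in adults (median 98.0), a log2 change of 3.01 ± 0.49, and Kcnab3 by 2.84 ± 0.54. Kcnab1 changed by 1.67 ± 0.65 with an adjusted p just above the threshold. The 3 highest adult values of Kcnab2 were those of the set 3 and set 6 libraries.

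Among the Kcnc pores, the channels of fast-spiking neurons, rises came to log2 changes of 2.41 ± 0.55 for Kcnc2, 2.08 ± 0.35 for Kcnc4 and 0.93 ± 0.35 for Kcnc1. Kcnc2 ran from 0.0703 to 7.07 CPM at P1 (median 3.40) and from 9.44 to 36.0 CPM in adults (median 12.5), so its groups did not overlap. Over the same interval 2 of 10 markers of inhibitory interneurons were higher and 4 lower. None of the 3 Kcnd pores, which carry the A-type current with the Kcnip subunits, passed, and Kcnd2 had log2 0.26 ± 0.47. Of their partners, Kcnip2 rose from between 33.6 and 82.7 CPM at P1 (median 48.3) to between 98.3 and 199 CPM in adults (median 175), a log2 change of 1.67 ± 0.22 (adjusted p = 9.77e-08), without overlap. Kcnip1 fell from between 29.6 and 78.2 CPM (median 45.9) to between 14.0 and 32.9 CPM (median 18.5), a log2 change of -1.11 ± 0.26 (adjusted p = 0.00101), ranges that overlap at their edges. Kcnip2 rose and Kcnip1 fell in level in all 5 sets.

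**Figure D3:**
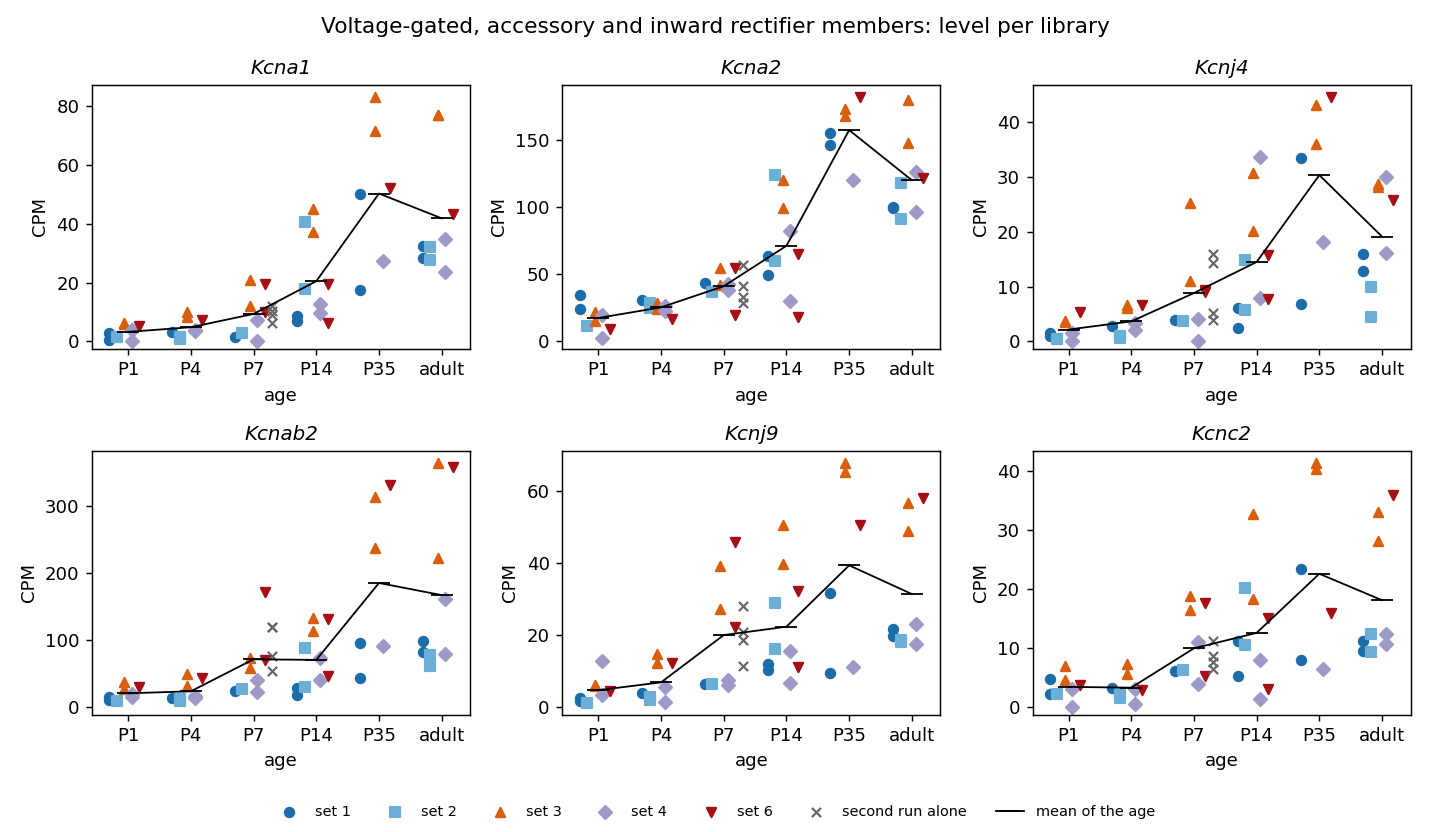
Level in CPM (y axis) of Kcna1, Kcna2, Kcnj4, Kcnab2, Kcnj9 and Kcnc2 in each library by age (x axis), with the marker showing the replicate set and the black line the mean of the age. All 6 rise with age, with means highest at P35, and in Kcnab2 the 3 highest adult points are those of sets 3 and 6 (orange and red triangles).

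Of the inward rectifiers, Kcnj4, a strong rectifier of forebrain neurons, rose by a log2 of 3.17 ± 0.69 (adjusted p = 0.000436), from a median of 1.59 CPM at P1 (0 to 5.38) to 16.1 CPM in adults (4.51 to 30.1), ranges that overlap at their edges. Kcnj9, a subunit of G-protein-gated channels, ran from 1.14 to 12.8 CPM at P1 (median 3.84) and from 17.6 to 58.1 CPM in adults (median 21.7), with no overlap and a log2 change of 2.79 ± 0.55 (adjusted p = 0.000123). Kcnj14 rose by 3.01 ± 0.78 from a median of 0.579 CPM to 5.91 CPM. The left-out Kcnj10 and Kcnj16 rose by log2 2.33 (adjusted p = 0.00109) and 2.80 (adjusted p = 0.000405), from means of 12.1 to 60.9 CPM and 5.79 to 40.2 CPM.

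Among the 8 members that fell, Kcne1l ran from 35.0 to 247 CPM at P1 (median 138) and from 13.5 to 63.3 CPM in adults (median 53.5), ranges that overlap. The lowest P1 libraries were those of sets 3 and 6. Its log2 change was -1.68 ± 0.50 (adjusted p = 0.00983), its means were 139, 183, 104, 82.9, 36.1 and 42.4 CPM, and in each of the 5 sets the adult mean was below the P1 mean, for example 60.4 against 237 CPM in set 1 and 13.5 against 56.9 CPM in set 6. Kcne1l was therefore both low in the sets rich in neuronal markers and falling with age, whereas the other members low in those sets rose or did not pass. Kcnh8 fell from a mean of 1.43 CPM to 0.0845 CPM (log2 -3.98 ± 1.07). Kcnk10, a relative of Kcnk2, fell by 1.53 ± 0.55 on the log2 scale, a call lost without any 1 of P1 female 1, P1 female 3, P1 male 3, adult female 1, adult female 4 or adult male 60, with values from -1.33 to -1.49. Kcnmb2, an inactivating subunit of Kcnma1 channels, had -1.98 ± 0.66, and Kcng1 had -1.50 ± 0.51. Without P1 female 4 neither passed: for Kcnmb2, P1 to adult then gave -1.16, and for Kcng1, P1 to adult gave -0.87. Without P1 male 3 Kcng1 had -1.09 and did not pass either. The other 2, Kcnq1 and Kcnn4, were below 1 CPM on average at every age.

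**Figure D4:**
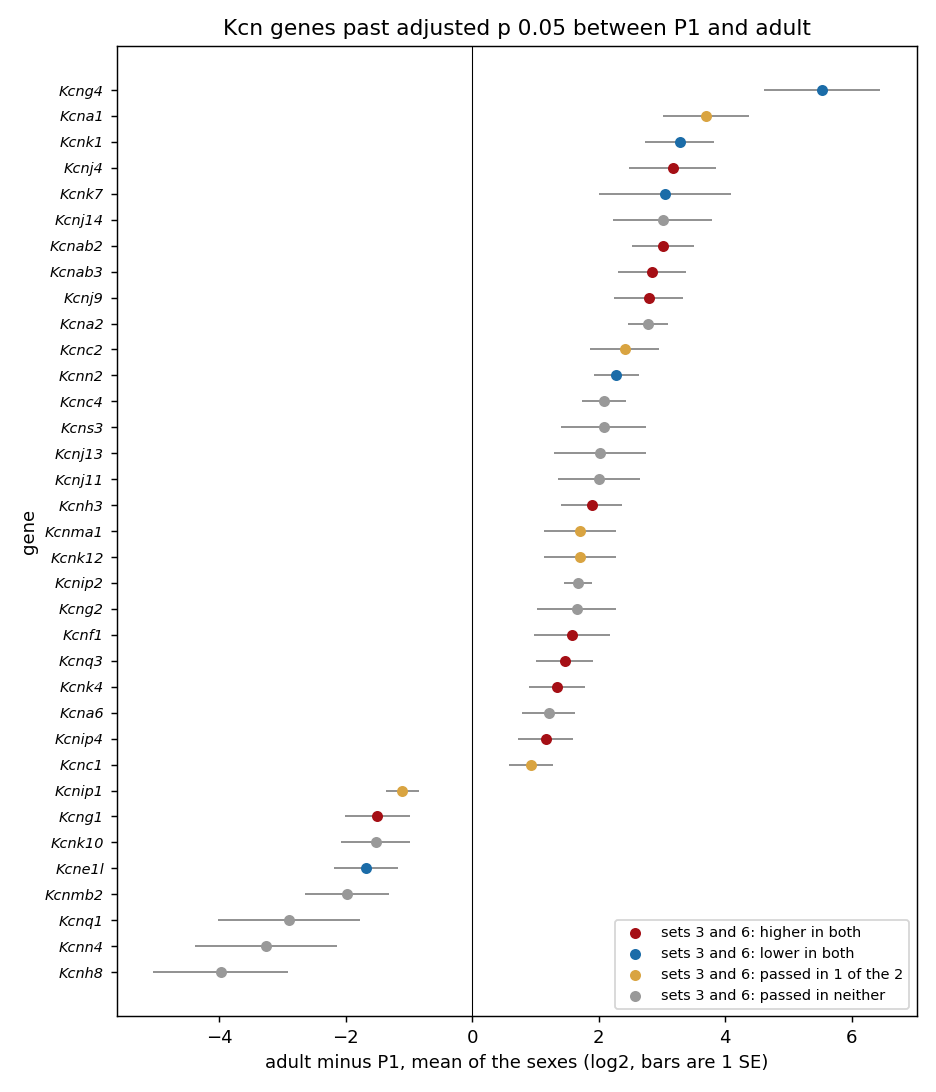
Log2 change from P1 to adult (x axis, points; bars are 1 SE) for genes past the adjusted p of 0.05 (y axis; 2 of the 37 are not drawn), coloured by how the gene differed between replicate sets. Kcng4 stands highest at 5.53 and Kcnh8 lowest at -3.98; genes lower in both set comparisons and genes higher in both are found among those that rose.

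Members of every set pattern were found among those that rose with age. Of the 7 lower in both set comparisons 4 rose, 1 fell and 2 did not pass, of the 14 higher in both 9 rose, 1 fell and 4 did not pass, and of the 30 that passed in neither 9 rose, 5 fell and 16 did not pass. Of the 29 that rose, 20 had their highest mean at P35, 5 in adults, 2 at P14 (Kcng4 and Kcnn2) and 2 at P7 (Kcnip4 and Kcnk4, named after their values were seen). Of the 3088 genes that rose in the whole table, 34.3% had their highest mean at P35 and 48.9% in adults. The 6 P35 libraries include 2 of set 3, 1 of set 6 and none of set 2, and the part of that make-up was not tested.

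With the run term and no other block in the edgeR fit, no single step between neighbouring ages passed for any member, although 4, 12, 7, 12 and 3 members had an unadjusted p under 0.05 at the steps P1 to P4, P4 to P7, P7 to P14, P14 to P35 and P35 to adult. The share of all genes called at these steps was 0%, 0.152% (0.147% higher and 0.00474% lower), 0.0189%, 0.0237% and 0%. DESeq2 called Kcng4, Kcnk1 and Kcnn2 higher from P7 to P14 and Kcna2 higher from P14 to P35, and none at the other steps. Without the run term edgeR called 4 members higher and 1 lower from P7 to P14. The shares of all genes called by DESeq2 and without the run term are not reported here. With the run term in edgeR, the P7 to P14 values of Kcng4, Kcnk1 and Kcnn2 were 3.07 ± 1.04, 1.98 ± 0.55 and 1.43 ± 0.36 (adjusted p = 0.305, 0.180 and 0.133). That of Kcna2 from P14 to P35 was 1.18 ± 0.30 (adjusted p = 0.208). A test of any difference among the 6 ages called 28 members (33.7%, against 24.9% of all genes).

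Of channels described in other brain cells, Kcnk13, Kcnk6 and Kcnj8 had means of at most 3.07 CPM at any age. The age means of Kcna3 ran from 3.57 to 7.12 CPM. Kcnk13 and Kcnk6, leak channels of microglia, had means of 1.22 and 0.348 CPM at P1 and 3.07 and 0.920 CPM in adults, and neither change passed (log2 1.33 ± 0.58, adjusted p = 0.0810, and 1.47 ± 0.90, adjusted p = 0.232). Kcna3, known from activated microglia, had -0.40 ± 0.71 from P1 to adult and was higher in set 3 than in set 1 by 1.65 ± 0.54 (adjusted p = 0.00914). Kcnj8, the pore of ATP-sensitive channels in pericytes, had -0.73 ± 0.86 with age and was also higher in set 3 (2.25 ± 0.79, adjusted p = 0.0154). In that comparison 4 of 13 microglial and 4 of 10 mural markers were higher, beside 28.2% of all genes, and their part in these differences was not tested. Kcnn3, described in astrocytes, had means of 5.86 CPM at P1 and 11.3 CPM in adults, a change of 0.94 ± 0.48 that did not pass (adjusted p = 0.143).

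Females and males were compared at each age and over the mean of the ages, the question in the title of the study. No member passed in edgeR or DESeq2 in any of these comparisons, nor did the P1 to adult change differ between the sexes for any. The labelled sex was kept, although 6 libraries go against it by their Y-linked genes, and without those 6 edgeR also called 0 members. Over the mean of the ages 0.0237% of all genes passed (0.00474% higher and 0.0189% lower in females), at P7 0.0189% and at each of the other ages 0%. At an unadjusted p under 0.05 there were 2 members over the mean of the ages, Kcng4 (female minus male log2 -0.99, p = 0.0380 before adjustment in edgeR) and Kcnk3 (0.59, p = 0.0187 before adjustment in edgeR), both named after their values were seen. At P1, P4, P7, P14, P35 and adult there were 5, 0, 2, 0, 1 and 0. Tested within one sex, P1 to adult placed 14 members higher and 2 lower in females (10.7% of all genes called, 5.11% higher and 5.59% lower) and 15 higher and 0 lower in males (12.4% of all genes, 6.20% higher and 6.17% lower). Examples past the threshold in both sexes were Kcnk1 (log2 3.20 in females and 3.37 in males), Kcng4 (5.41 and 5.64) and Kcnn2 (2.24 and 2.31). Kcna2 (2.77 and 2.79) and Kcnip2 (1.43 and 1.90) also passed in both. Such a choice favours members that change alike. Over all 83 members the change in females minus that in males had a median log2 of -0.19 (0.07 over all genes). It was below 0 for 54 members and above 0 for 29.

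Of 21 partner proteins and pacemaker channels looked up beside the family, 19 were measured. From P1 to adult 6 rose (14.6% of all genes did so), among them the pacemaker pore Hcn2 (log2 2.05 ± 0.43), Lrrc38, an auxiliary subunit of Kcnma1 channels (5.56 ± 1.10), and Lgi1, a secreted protein tied to Kcna channels (1.99 ± 0.41). The 2 that fell (13.4% of all genes) were Hcn4 (-3.44 ± 0.94) and Cntnap2, the protein that gathers Kcna channels beside nodes of Ranvier (-1.44 ± 0.23), which went from 89.3 ± 31.1 to 33.3 ± 10.2 CPM while Kcna1 and Kcna2 rose. Of the 19 partners, 12 were higher and 1 lower in set 3 minus set 1 (28.2% and 24.8% of all genes), and 5 were higher and 0 lower in set 6 minus set 2 (15.9% and 14.9% of all genes).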

How the data were processed

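Ribosome-bound RNA of mouse cortex was read in 53 libraries. The deposited table holds counts per gene, made by the authors with CASAVA, HISAT2, SAMtools and featureCounts on GRCm38.p5, per the submitters' processing notes. No source used here gives versions, the annotation release, the strand setting or a filter on genes, and every row of the table sums to at least 50 counts. Libraries were strand-marked, from RNA with an integrity number above 8, per the labels' protocols. The 4 animals sequenced a second time have 1 column each: P7 female 10, P7 male 2, P7 male 6 and P7 female 6. Their totals were 42222297, 44173412, 44639966 and 48541139 counts, against a median of 24033399 over all libraries. Whether these columns sum both runs is not stated. The run term counted them with the first run, and the P7 results rest on that choice.

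Counts as deposited were fitted with edgeR 4.0.16 in R 4.3.3 (TMM factors, robust quasi-likelihood fit, 1 mean per age and sex group plus a term for the sequencing run) over all 21118 genes. The function filterByExpr removed 0 of them. P-values were adjusted by Benjamini-Hochberg over all genes and called under 0.05. Replicate sets were compared in a fit of group plus set. Set 6 minus set 2 was added after the data were seen. These p-values rest on the spread between libraries left over in each fit. For the sets they treat the libraries of 1 set as replicates, and they do not measure how much such sets vary. The age and sex fit has no set term and treats libraries of the same set as independent, although most of them deviated together. CPM values are counts scaled to the TMM-adjusted library size, and CPM per kb divides them by the length of all annotated exons.

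Genes were named by a rule: past the threshold with at least 1 CPM in the higher age, the 12 largest changes each way from P1 to adult; with at least 5 CPM in the higher set, the 10 largest each way for sets 3 and 6 against set 1; the 15 highest levels per kb; and channels described in glia, mural cells or microglia. Other members are named where a whole subfamily or pattern is described, chosen after their values were seen. The members, marker lists and tests were chosen with earlier results of these data known.

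Alternatives were DESeq2 1.42.0 and its size factors, a filter of 1 CPM in 3 libraries, no filter, no run term, a replicate block, each library left out, and libraries with few genes or conflicting sex labels left out. On simulated data for P1 to adult, with 200 changed genes among 20593, edgeR recovered 73 of 100 genes changed 4-fold and 91 of 100 changed 8-fold with 5 false calls. For set 6 minus set 1 it recovered 69 and 86 of 100 with 2 false calls. On the same simulated counts DESeq2 recovered 80 and 98 of 100 with 42 false calls for P1 to adult. For set 6 minus set 1 it recovered 80 and 91 of 100 with 56 false calls, so calls made by DESeq2 alone are less certain. The simulated libraries were drawn independently, without the shared deviations of a set. Promoter windows came from RefSeq (GRCm38.p6) for 60 of the 83 members. Values of some members are not reported here.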

Additional observations from a re-analysis of the deposited data

Results flagged for a closer look

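For 18 members the highest or lowest library of each sex and age group of 4 to 10 libraries was compared with its neighbours by Dixon's ratio at the 95% level. Of 180 gene and group pairs 20 held a library far from the others, and chance gives about 1 in 20. All values are CPM.

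Libraries of set 3 stood high for channels that were higher in set 3 minus set 1, and for Kcna2, which did not pass there. Adult female 3 had Kcna2 at 180 (the others 90.8 to 100), Kcnab1 at 171 (24.3 to 32.2), Kcnab3 at 97.4 (21.1 to 34.1), Kcnip4 at 83.8 (29.6 to 31.1) and Kcnd2 at 69.4 (21.7 to 23.6). P4 male 3 had Kcnab2 at 49.1 (9.97 to 14.3), Kcnd2 at 51.7 (23.0 to 24.3) and Kcnh3 at 61.0 (21.0 to 27.2). P1 male 3 had Kcnab1 at 52.0 (5.97 to 9.28) and Kcnab3 at 11.4 (4.51 to 5.38), P14 male 3 had Kcnab3 at 45.9 (4.68 to 14.1), and P7 female 3 had Kcnj4 at 25.3 (0.0437 to 11.1). P14 female 6 had Kcnip4 at 125 (24.1 to 41.8) and Kcng4 at only 6.85 (28.7 to 36.7).

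Libraries of set 1 stood high for members of the group that was lower in sets 3 and 6. P1 female 1 had Kcnip3 at 309 (57.9 to 75.8) and Kcng4 at 1.66 (0 to 0.0366), P1 male 1 had Kcng4 at 1.70 (0.0336 to 0.276), and P7 female 10 had Kcnk1 at 77.8 (11.9 to 39.4). P14 male 4, which has few detected genes, had Kcnc4 at 64.3 (26.7 to 37.3). P7 male 2 had Kcnk7 at 0.589, with 0 in the other males of that age.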

How the results depend on the processing

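From P1 to adult the counts of members that rose and fell stayed within 1.5 times of 29 and 8 under all alternatives run: 36 and 9 in DESeq2, 34 and 8 without the 3 libraries with the fewest genes, 22 and 6 without the 6 libraries that go against their sex label. Leaving out 1 library at a time gave 24 to 35 higher and 6 to 8 lower, 24 to 34 for any age, 41 to 48 and 6 to 7 for set 3, 24 to 36 and 7 to 11 for set 6, 5 to 6 and 2 to 5 for set 4, and 7 to 22 and 8 to 10 for the second run alone, where 12 rose to 22 without P1 female 4 and fell to 7 without P7 female S2. For P7 to P14 it gave 0 to 2 higher, with 1 without P1 female 4 and 2 without P14 male 6, and for the other steps and the sexes 0 to 0. Set 6 minus set 2 was not refitted with single libraries left out. With all libraries, the second run alone minus set 1 placed 12 members higher and 9 lower. That was 25.3% of members, against 32.6% of all genes (14.3% higher and 18.3% lower). Shares of all genes in the alternative fits of this section are not reported here.

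Libraries of different groups with the same replicate number mostly deviated together, although the labels do not say that a number marks shared animals or days: of 219 pairs of libraries with the same number 208 had deviations correlated above 0.1, the lowest was -0.106, the median 0.587 (-0.154 for different numbers), and 41 of 49 libraries correlated best with their own number. With these numbers as a replicate block the counts were 42 higher and 8 lower from P1 to adult, 46 for any age, 6 higher from P4 to P7, 4 higher from P7 to P14, and 3 higher and 1 lower from P14 to P35. The shares of all genes called in that fit are not reported here, so these counts are not set against the whole table.

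For P7 to P14, leaving out the run term gave 4 higher and 1 lower, and DESeq2 gave 3 higher. For P14 to P35 DESeq2 gave 1 higher. Without the 3 libraries with the fewest genes 1 member was higher from P4 to P7, 3 were lower in set 4 and 26 higher in the second run alone, where DESeq2 called 20. With set 2 as the reference for set 6, 16 members were higher in place of 27. The cause of these moves was not tested. No value for a single gene changed sign among called values. Over single genes and alternatives 7627 values kept their side of the threshold, 124 passed where they had not and 81 no longer passed. The P1 to adult calls of Kcnip4, Kcnf1 and Kcnk4 were lost without any 1 of 13, 8 and 3 libraries, with values of 0.90 to 1.19, 1.34 to 1.51 and 1.04 to 1.16. Counts limit precision for the 13 members under 1 CPM on average.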
